A study of Homo sapiens with 4 samples.

Results

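The mitochondrial ribosomal protein genes were taken as every gene symbol of the deposited expression table made of MRPL or MRPS, a number and at most 1 further letter. The rule found 78 of 59409 symbols, 49 of the large subunit (MRPL) and 29 of the small subunit (MRPS), and used no measured value. Polyadenylated RNA was sequenced from 786-O, an established line of human renal carcinoma. The DEK KO group (2 libraries, genotype DEK KO) came from a Cas9-expressing clone infected with lentiviral guides against DEK, a chromatin protein, and then sorted as single cells. The control group (2 libraries, labelled as negative control, genotype WT) came from the same line and, going by the column names, carried Cas9. Neither the knockout clone behind a library nor the separation of cultures within a group is stated, so every p-value reflects the variation among these 4 libraries alone, and that variation may be technical. In these bulk samples, fewer cells of a type and less RNA per cell cannot be told apart.

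The mitochondrial ribosome (mitoribosome) translates the few membrane proteins of the respiratory chain that the mitochondrial genome encodes. Its ribosomal RNAs come from the mitochondrial genome, while all of its proteins are encoded in the nucleus, made in the cytosol and imported. The small subunit holds the decoding site and the large subunit the peptidyl transferase centre. Some of the proteins have counterparts in bacterial ribosomes, and others are found only in mitochondria. In kidney tubule cells, which are rich in mitochondria, the products of this translation serve oxidative phosphorylation.

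Values are TPM, a length-scaled share of transcripts that sums to 1000000 in each library. DEK mRNA had 31.4 and 15.7 TPM in the knockouts, against 95.0 and 76.3 TPM in the controls. This difference was -1.89 in log2 fold change (SE 0.33), with a limma adjusted p of 0.0304. The 6 renal line markers were present in every library, PAX8 at 140 and 160 TPM in the knockouts and 153 and 142 TPM in the controls. Of these 6, CCND1 (log2 fold change 1.13), VEGFA (1.3) and KRT18 (0.42) rose, with limma adjusted p of 0.0125, 0.0127 and 0.0251, and VIM, KRT8 and PAX8 did not pass. Of 8 markers of blood, endothelium, podocytes and thick limb, the highest value in any library was 0.0362 TPM. Depth in units of 1000000 reads, estimated from the steps between low values, was 35.8 and 40.1 in the knockouts and 38.9 and 39.5 in the controls.

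Promoters of 4 members that passed the test described below are shown because they hold the motif shared by the most members. They were taken from RefSeq on GRCh38.p14 and run from 250 bases before to 50 bases after the annotated start, written 5′ to 3′ on the strand of the gene. Capitals mark matches on either strand to the ETS motif CCGGAAG and the YY1 motif AAGATGGC. MRPS10, MRPL30 and MRPL53 were lower in the knockouts and MRPL40 was higher.
MRPS10, chr6:42217812-42218111, minus strand: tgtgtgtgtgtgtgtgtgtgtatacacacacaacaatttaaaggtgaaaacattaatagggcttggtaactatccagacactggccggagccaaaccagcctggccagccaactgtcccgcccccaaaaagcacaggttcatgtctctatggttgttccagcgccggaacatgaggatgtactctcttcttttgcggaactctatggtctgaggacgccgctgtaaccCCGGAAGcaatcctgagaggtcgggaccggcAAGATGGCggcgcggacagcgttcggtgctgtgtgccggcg
MRPL30, chr2:99180934-99181233, plus strand: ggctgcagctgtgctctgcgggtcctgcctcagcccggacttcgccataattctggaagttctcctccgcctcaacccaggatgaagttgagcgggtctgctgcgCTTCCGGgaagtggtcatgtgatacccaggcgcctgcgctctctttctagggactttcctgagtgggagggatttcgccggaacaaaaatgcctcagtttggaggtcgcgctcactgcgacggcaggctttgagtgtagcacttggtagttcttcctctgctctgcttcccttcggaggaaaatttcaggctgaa
MRPL53, chr2:74472631-74472930, minus strand: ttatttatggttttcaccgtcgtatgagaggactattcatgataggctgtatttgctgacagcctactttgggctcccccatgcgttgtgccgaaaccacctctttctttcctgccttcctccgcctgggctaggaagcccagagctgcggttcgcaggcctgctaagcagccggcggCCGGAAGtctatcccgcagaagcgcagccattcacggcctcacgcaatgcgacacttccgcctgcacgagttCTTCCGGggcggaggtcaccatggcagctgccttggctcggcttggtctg
MRPL40, chr22:19432295-19432594, plus strand: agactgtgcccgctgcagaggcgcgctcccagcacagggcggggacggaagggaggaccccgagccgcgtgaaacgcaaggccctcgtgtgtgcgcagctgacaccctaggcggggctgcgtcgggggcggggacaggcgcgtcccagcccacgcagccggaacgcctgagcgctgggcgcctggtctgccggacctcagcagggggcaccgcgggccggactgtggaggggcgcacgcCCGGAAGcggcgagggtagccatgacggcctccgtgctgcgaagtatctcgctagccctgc
MRPS10 held 1 match to each motif, MRPL53 held 2 ETS matches, and MRPL30 and MRPL40 held 1 ETS match each. The ETS letters they share were the reason for their choice. Of the 9 members past the test 8 had a RefSeq promoter, and 5 of these held an ETS match, the fifth being MRPL43.

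RefSeq promoters were available for 69 of the 78 members, 85 promoters in all because 11 members have several starts. The ETS motif was present in 33 of 85 member promoters (38.8%), against 17.1% of 14518 promoters of tested genes. The YY1 motif was present in 23 of 85 (27.1%), against 4.83%. Its share was close between the subunits, 26.9% for MRPL and 27.3% for MRPS promoters. The full NRF1 palindrome was present in 1 of 85, against 2.03%, and the shorter letters TGCGCA, which the palindrome contains, in 17 of 85 (20.0%), against 12.1%. The CCAAT box, spelled CCAAT, was present in 32.9%, against 34.6%. Both strands were searched, and these matches are a description of letters, not of bound sites.

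The members were broadly expressed, and their levels differed widely from gene to gene. The mean over the 4 libraries was at least 10 TPM for 74 members and at least 100 TPM for 21, with a median of 72.8 TPM. MRPL41, a large-subunit protein found only in mitochondria, had the highest level, with 332 and 375 TPM in the knockouts and 307 and 293 TPM in the controls. MRPS34, a small-subunit protein found only in mitochondria, followed with 287 and 331 TPM in the knockouts and 321 and 332 TPM in the controls. Both MRPL41 knockout values lay above the controls, while the groups overlapped for MRPS34, and neither gene passed the test (log2 fold change 0.23, limma adjusted p = 0.109, and -0.08, limma adjusted p = 0.528). MRPL37 (181 and 159 TPM in the knockouts, 201 and 202 TPM in the controls) and MRPL33 (182 and 173 TPM in the knockouts, 197 and 179 TPM in the controls) were next among the large-subunit genes.

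At the low end, MRPL42 had 3.46 and 2.98 TPM in the knockouts and 5.37 and 4.69 TPM in the controls, and MRPL2, the counterpart of a core bacterial protein, had 8.41 and 8.49 TPM in the knockouts, against 10.2 and 9.74 TPM in the controls. MRPS24, the counterpart of bacterial S3 at the mRNA entry, was nearly absent, with 0.144 and 0.128 TPM in the knockouts and 0.132 and 0.510 TPM in the controls. It was the 1 member that did not pass the filter of 1 TPM in at least 2 libraries, so 77 members were tested. A readthrough gene, URGCP-MRPS24, covers 23.2% of its exon bases in GENCODE 29 and was listed at 0 in all 4 libraries. How the authors assigned reads shared by 2 genes is not given in the sources used here. Across the 78 members, mean TPM and the GENCODE 29 exon length had a Spearman correlation of -0.40. TPM is itself scaled by gene length, so part of this relation may be built in. MRPL42, with 16393 exon bases, was the longest of the low members.

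Summed over all its genes, each subunit was slightly lower in the knockouts. The MRPL genes summed to 4123 and 4117 TPM in the knockouts, against 4418 and 4307 TPM in the controls. The MRPS genes summed to 2008 and 1964 TPM in the knockouts, against 2113 and 2113 TPM in the controls. Neither sum overlapped between the groups, and the knockout mean was 0.944 of the control mean for MRPL and 0.940 for MRPS. Tested genes in general were also slightly lower, with a median log2 fold change of -0.06. Both knockouts lay below both controls in 39% of them. Both subunits together took 0.613% and 0.608% of all TPM in the knockouts and 0.653% and 0.642% in the controls. The MRPL sum divided by the MRPS sum was 2.05 and 2.10 in the knockouts and 2.09 and 2.04 in the controls, so the groups overlapped in this ratio.

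**Figure D1:**
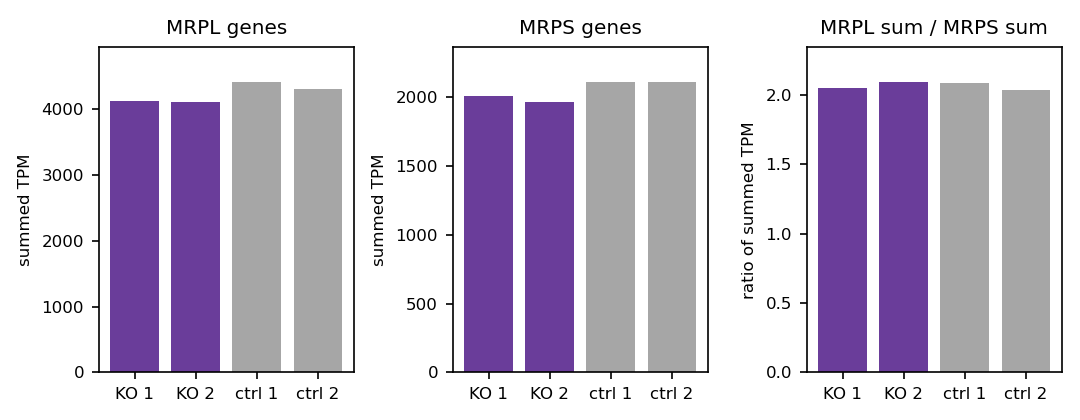
Summed TPM of the MRPL genes (left), of the MRPS genes (centre) and the ratio of the sums (right), 1 bar per library, knockouts in purple and controls in grey. The sums of both knockouts were below those of both controls, 4123 and 4117 against 4418 and 4307 TPM for MRPL, while the ratios, 2.05 and 2.10 against 2.09 and 2.04, overlapped. Among single tested genes, 39% had both knockouts below both controls.

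Single members were tested with limma on log2(TPM + 1) across all 15815 genes that passed the filter, with Benjamini-Hochberg adjustment at 0.05. Of the 77 tested members, 8 fell and 1 rose. This is 11.7% of them, against 17.7% of all tested genes, so the share of called members was below the background. Falls made up 10.4% of the members, against 8.67% of all genes, and rises 1.3%, against 9.06%. Among the MRPL genes 3 fell and 1 rose of 49, and among the MRPS genes 5 fell and 0 rose of 28. The median log2 fold change was -0.18 for MRPL and -0.15 for MRPS, against -0.06 for all tested genes. Values below 0 were found for 38 of 49 MRPL genes and 18 of 28 MRPS genes, 72.7% of members together, against 55.6% of all tested genes. In 45 members both knockouts lay below both controls (58.4%, against 39% of all tested genes), and in 12 both lay above (15.6%, against 29.2%). At an unadjusted p under 0.05, limma called 35 members (45.5%), against 38.3% of all tested genes.

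These counts changed when single libraries were left out. Such a fit leaves 1 library in a group, which is assumed to vary like the pair in the other group. With either control left out, the spread therefore came from the knockouts, 0 members passed in limma, and 7 (without control 1) and 10 (without control 2) had an unadjusted p under 0.05. These were 9.09% and 13.0% of members, against 19.5% and 21.9% of all genes. The log2 fold changes of MRPS28 were -0.91 and -0.97 in these fits, and those of MRPL30 were -0.61 and -0.60. Over all genes 47 and 51 passed (0.307% and 0.333%). With knockout 1 left out 41 members passed, 33 of them lower, beside 36.4% of all genes, and with knockout 2 left out 16 passed, 12 of them lower, beside 20.4% of all genes. The 9 members called with all libraries were among the 41, and 8 of them were among the 16.

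**Figure D2:**
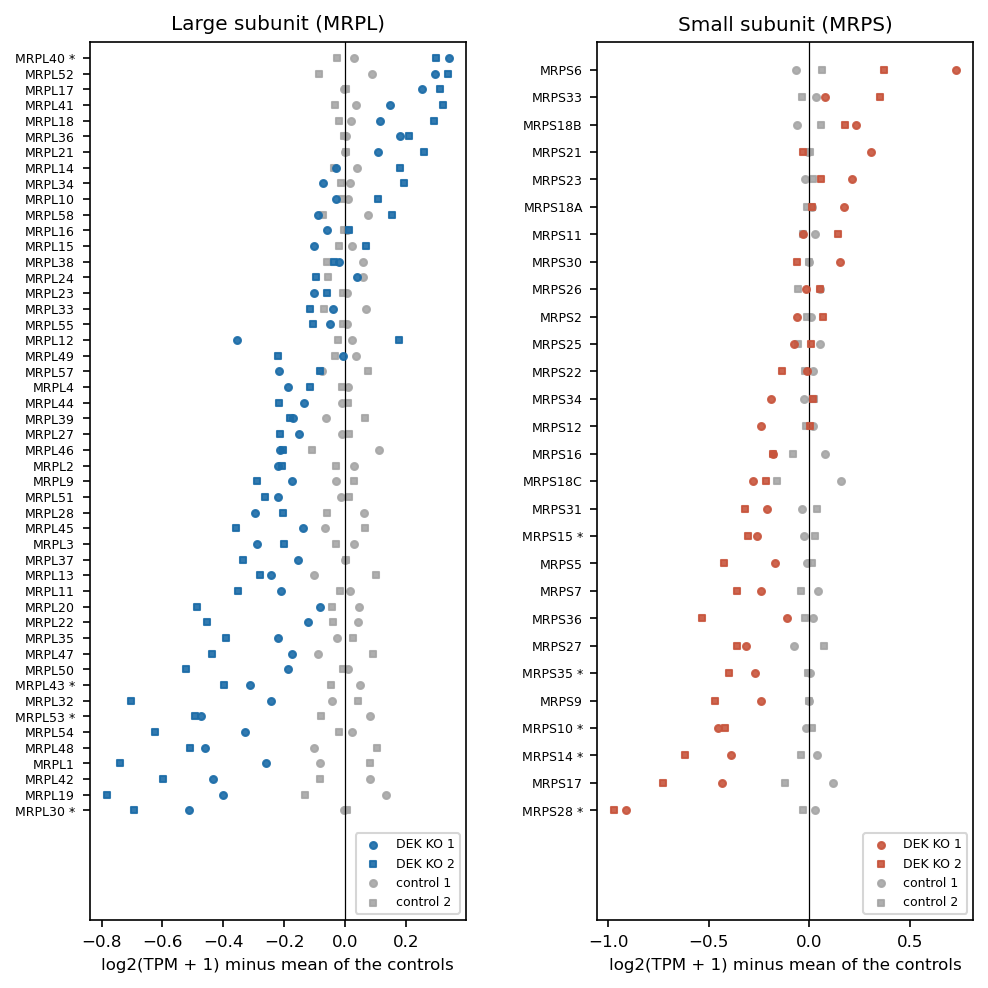
Each tested member in each library, as log2(TPM + 1) minus the mean of the controls, ordered by log2 fold change, with knockouts in colour and controls in grey (circles for replicate 1, squares for replicate 2) and an asterisk on names past the test. Most members lie left of 0 in both knockouts, MRPS28 (-0.94) lowest and MRPS6 (0.55) highest by log2 fold change.

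The small-subunit genes held the fall of greatest size among the members. MRPS28, a small-subunit protein on chromosome 8, had 7.97 and 7.61 TPM in the knockouts, against 16.2 and 15.5 TPM in the controls. Both knockouts were far below both controls, with means of 7.79 ± 0.254 TPM and 15.8 ± 0.529 TPM (SD, n = 2 each), a 2.03-fold lower level. Its log2 fold change was -0.94 (SE 0.11, limma adjusted p = 0.0167), and it lay between -1.01 and -0.79 over the alternatives, with adjusted p between 0.00597 and 0.138. Another gene on the same strand, AC036214.3, shares 35.8% of its exon bases and had 0.0706 and 0 TPM in the knockouts and 0.259 and 0.187 TPM in the controls.

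MRPS10, the counterpart of bacterial S10 in the head of the subunit (chromosome 6, 42206801 to 42217865), had 75.1 and 77.0 TPM in the knockouts, against 102 and 105 TPM in the controls. Replicates were close and the groups separate. The log2 fold change was -0.44 (SE 0.07) with a limma adjusted p of 0.0238, and it was -0.23 (adjusted p = 0.107) once the GC trend was removed. MRPS14, the counterpart of S14 (chromosome 1, 175010789 to 175023425), had 23.3 and 19.7 TPM in the knockouts, against 31.7 and 29.9 TPM in the controls. Its log2 fold change was -0.51 (SE 0.12, adjusted p = 0.0478), and -0.23 (adjusted p = 0.127) without the GC trend. CACYBP, which overlaps it on the other strand, also fell (log2 fold change -0.38, adjusted p = 0.043).

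MRPS15, the counterpart of S15 (chromosome 1, 36455718 to 36464437), had 157 and 152 TPM in the knockouts, against 184 and 192 TPM in the controls. Its log2 fold change of -0.28 (SE 0.06; adjusted p = 0.0463 in limma) was -0.12 (adjusted p = 0.298) once the median of each chromosome was subtracted, since the median of chromosome 1 was itself -0.17. MRPS35, found only in mitochondria (chromosome 12, 27710773 to 27756295), had 78.8 and 71.9 TPM in the knockouts, against 95.4 and 94.8 TPM in the controls. Its log2 fold change of -0.33 (SE 0.08, adjusted p = 0.0492) was -0.10 (adjusted p = 0.299) without the GC trend. These 2 genes and MRPS14 sat just inside the threshold.

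Among the other small-subunit genes, MRPS17, the counterpart of S17, had 9.78 and 7.79 TPM in the knockouts and 14.8 and 12.4 TPM in the controls, and it did not pass (log2 fold change -0.58, SE 0.16, limma adjusted p = 0.071). NIPSNAP2, which shares exon bases with it, fell (log2 fold change -0.87, adjusted p = 0.0208). MRPS6, the counterpart of S6 on chromosome 21, was on the other side of 0, with 138 and 107 TPM in the knockouts and 78.9 and 86.2 TPM in the controls. The knockouts were both higher but 0.36 apart on the log2 scale, and the log2 fold change of 0.55 (SE 0.14) had an adjusted p of 0.0566. SLC5A3, which shares exon bases with MRPS6 on the same strand, had 14.5 and 9.7 TPM in the knockouts and 8.74 and 6.44 TPM in the controls. MRPS33 had 17.4 and 21.2 TPM in the knockouts and 16.8 and 15.99 TPM in the controls (log2 fold change 0.22, adjusted p = 0.282).

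The MRPS18 genes are paralogs related to bacterial S18, and their proteins sit at different places in the mitoribosome, MRPS18A in the large subunit and MRPS18B and MRPS18C in the small one. MRPS18B had 131 and 126 TPM in the knockouts and 107 and 116 TPM in the controls. MRPS18A had 79.5 and 71.0 TPM in the knockouts and 71.0 and 69.8 TPM in the controls. MRPS18C, the lowest of the trio, had 27.3 and 28.6 TPM in the knockouts and 37.3 and 29.7 TPM in the controls. The log2 fold changes were 0.20 for MRPS18B, 0.09 for MRPS18A and -0.25 for MRPS18C, and none passed limma (adjusted p = 0.119, 0.467 and 0.239). With the GC trend removed the sign turned for MRPS18C (0.07). MRPS2 was level, with 115 and 127 TPM in the knockouts and 121 and 120 TPM in the controls (log2 fold change 0.00, adjusted p = 0.978).

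In the large subunit, MRPL30, the counterpart of bacterial L30 (chromosome 2, 99181079 to 99197626), had 20.5 and 18.0 TPM in the knockouts, against 29.6 and 29.8 TPM in the controls. Both knockouts were well below the controls, whose values nearly coincided, and the log2 fold change was -0.60 (SE 0.10, limma adjusted p = 0.0293). On the same strand, AC079447.1 and AC092587.1 share 19.5% of the exon bases of MRPL30. MRPL43, found only in mitochondria (chromosome 10, 100969458 to 100987515), had 43.9 and 41.4 TPM in the knockouts, against 56.7 and 53.0 TPM in the controls. Its log2 fold change of -0.36 (SE 0.08, adjusted p = 0.0496) was the closest to the threshold of all calls among the members, and it was -0.22 (adjusted p = 0.0909) with chromosome medians subtracted. Other genes, on the opposite strand, share 36.9% of its exon bases.

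The stalk of the large subunit recruits the translation factors. MRPL53, a stalk-base protein found only in mitochondria (chromosome 2, 74471958 to 74473322), had 129 and 128 TPM in the knockouts, against 191 and 170 TPM in the controls. The groups were separate, with means of 128 ± 1.25 TPM and 180.5 ± 14.3 TPM (SD, n = 2 each), and the log2 fold change was -0.48 (SE 0.08, limma adjusted p = 0.0273). It passed under each scaling and correction tried with all libraries, but not with a constant variance prior, with no filter on low values or without a control, and 45.2% of its exon bases are shared with CCDC142. MRPL54 had 79.2 and 64.4 TPM in the knockouts and 101 and 98.4 TPM in the controls, a log2 fold change of -0.48 (SE 0.12) just outside the threshold (adjusted p = 0.0534). MRPL11 had 61.7 and 55.9 TPM in the knockouts and 72.5 and 70.8 TPM in the controls (log2 fold change -0.28, adjusted p = 0.0764).

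MRPL10, which anchors the stalk, did not separate the groups, with 62.6 and 68.9 TPM in the knockouts and 64.4 and 63.5 TPM in the controls (log2 fold change 0.04, limma adjusted p = 0.764). MRPL12, the flexible stalk protein that also binds the mitochondrial RNA polymerase, had 36.5 and 53.2 TPM in the knockouts and 47.7 and 46.2 TPM in the controls. One knockout was below both controls and the other above both. Its log2 fold change of -0.09 (adjusted p = 0.759) was -0.35 (adjusted p = 0.0358) without knockout 2 and 0.18 (adjusted p = 0.108) without knockout 1. Each of these fits sets 1 knockout library against 2 controls, with the spread taken from the controls alone.

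MRPL40, a protein of the central protuberance of the large subunit, was the member that rose. The gene (chromosome 22, 19431902 to 19436075) had 134 and 130.1 TPM in the knockouts, against 108 and 104 TPM in the controls. The log2 fold change was 0.32 (SE 0.07, limma adjusted p = 0.0401). All 390 tested genes of chromosome 22 had a median of 0.22, and with chromosome medians subtracted MRPL40 was at 0.10 (adjusted p = 0.31), so its call was lost. Among the 6 genes of the protuberance given in the list used here, 1 rose, 0 fell and the median was 0.00. Of all tested genes 9.06% rose and 8.67% fell.

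MRPL52 had 107 and 110.5 TPM in the knockouts and 92.8 and 82.1 TPM in the controls (log2 fold change 0.32, limma adjusted p = 0.0671), and MRPL17, the counterpart of L17 at the exit of the peptide tunnel, had 84.2 and 87.9 TPM in the knockouts, against 70.4 and 70.8 TPM in the controls (log2 fold change 0.28, adjusted p = 0.0551). Both were separate from the controls and passed under median-ratio scaling, with the GC trend removed and with chromosome medians subtracted. Neither passed with a pseudocount of 0.1, with no filter on low values, without the mitochondrial genome or after quantile normalization. The same held with a constant variance prior and with a replicate block. MRPL19, the counterpart of L19, had 16.2 and 12.2 TPM in the knockouts and 23.9 and 19.7 TPM in the controls (log2 fold change -0.59, adjusted p = 0.0805). The 8 listed genes around the tunnel exit had a median of -0.18, with 0 past the test, beside 17.7% of all tested genes. Of these 8, 7 were below 0 (87.5%), against 72.7% of members and 55.6% of all tested genes.

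Grouped by origin, the 30 MRPL genes with bacterial counterparts had a median log2 fold change of -0.17, and the 19 found only in mitochondria had -0.21. Among the MRPS genes, the 17 tested with counterparts had -0.25 and the 10 found only in mitochondria -0.06. Past the test were 1 of 30 (3.33%) and 3 of 19 (15.8%) in MRPL, and 4 of 17 (23.5%) and 1 of 10 (10.0%) in MRPS. Of all tested genes 17.7% passed. MRPS36, which belongs to neither group because its protein is now assigned to the 2-oxoglutarate dehydrogenase complex, had 13.0 and 9.42 TPM in the knockouts and 14.3 and 13.9 TPM in the controls. Another 5 proteins of the mitoribosome carry other gene names and escape the symbol rule. DAP3, a GTP-binding protein of the small subunit, had 117 and 101 TPM in the knockouts and 94.2 and 100 TPM in the controls. CHCHD1, AURKAIP1, PTCD3 and GADD45GIP1 had log2 fold changes of -0.13, -0.19, -0.12 and 0.00, and DAP3 had 0.16. None of these 5 passed limma, which called 0 of them at an unadjusted p under 0.05 as well, beside 38.3% of all tested genes.

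**Figure D3:**
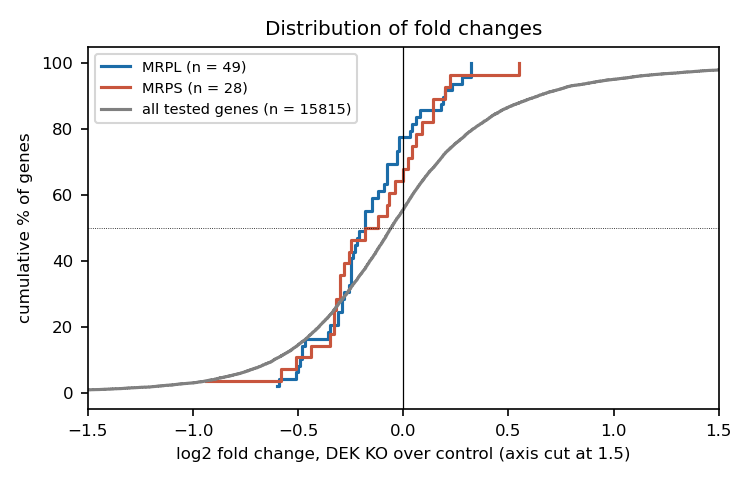
Cumulative share of genes by log2 fold change (knockout over control) for the 49 MRPL genes, the 28 tested MRPS genes and all 15815 tested genes. The medians, where the curves cross the dotted line, are -0.18, -0.15 and -0.06, and the members lie within a narrow range, from -0.94 to 0.55.

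The fold changes of the members followed their base composition, as did those of tested genes in general. Over the 77 tested members the Spearman correlation between log2 fold change and GC content (longest transcript of each gene) was 0.42, and over 15637 tested genes it was 0.35. The points share the 4 libraries. The 38 members under 47.7% GC had a median of -0.27, against -0.20 for the 7329 tested genes in the same range. The 39 members at or above it had a median of -0.08, against 0.07 for 8308 tested genes. With the GC trend removed, the median was -0.11 for each subunit and 0.00 for all tested genes. The part of base composition in the falls was not tested beyond this.

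The 2 knockout libraries differed more from each other than the controls did. The distance between the knockouts exceeded that between the controls in 56 of 77 members (72.7%, against 66.4% of all tested genes), with a median distance of 0.136, against 0.060 between the controls, on the log2 scale. Over all tested genes these medians were 0.19 and 0.102, so both pairs were closer in the members. The distances were not matched for level. The filter for tested genes was 1 TPM, while 74 of the 78 members had a mean of at least 10 TPM. MRPL12 was the most uneven, with knockout 1 lower by 0.53, and in MRPL1 (0.48), MRPL32 (0.46), MRPS36 (0.43) and MRPL20 (0.40) knockout 1 was the higher. All 8 members on chromosome 1 and all 8 on chromosome 2 were higher in knockout 1 than in knockout 2, where the chromosome medians of this difference were 0.17 and 0.06. On chromosome 7 the median was -0.21, yet MRPL32 was higher in knockout 1, at 89.7 TPM against 65.02 TPM in knockout 2. The part of whole-chromosome differences in these values was not tested, apart from the subtraction of chromosome medians. Under that subtraction 4 of 77 members fell and 3 rose, beside 18.4% of all genes that passed in either direction.

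**Figure D4:**
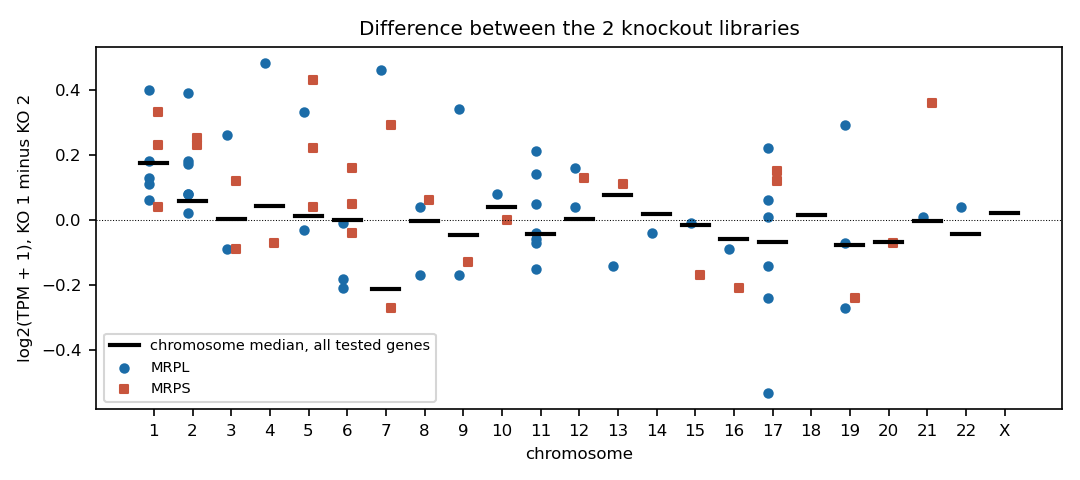
Difference between knockout 1 and knockout 2 on the log2(TPM + 1) scale for each tested member by chromosome (circles MRPL, squares MRPS), with black bars for the median of all tested genes of that chromosome. All 16 members on chromosomes 1 and 2 lie above 0, and MRPL12 on chromosome 17 lies lowest, at -0.53.

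Many members share a start region with a gene on the other strand. Of the 78 members, 17 (21.8%) had a protein-coding gene whose start lay within 1000 bases and pointed away, against 10.1% of tested protein-coding genes. MRPL46 and MRPS11, whose starts are 34 bases apart, had log2 fold changes of -0.21 and 0.06 (limma adjusted p = 0.303 and 0.71). MRPL47 had -0.31 (adjusted p = 0.148), and its partner NDUFB5, a complex I subunit, fell by 0.71 on the log2 scale (adjusted p = 0.0461). MRPL30, at -0.60, had the partner MITD1 at -0.29 (adjusted p = 0.0772), and MRPL27, at -0.18, had EME1, which rose (0.38, adjusted p = 0.0457).

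Other genes of mitochondrial translation are read here beside all tested genes, of which 8.67% fell, 9.06% rose and 55.6% were below 0, with a median of -0.06. A list of 19 tested genes held tRNA synthetases of mitochondria and the amidotransferase subunits QRSL1, GATB and GATC. Of these 19, 5 fell (26.3%) and 0 rose, 68.4% were below 0, and the median log2 fold change was -0.25. WARS2, for tryptophan, had 13.6 and 8.52 TPM in the knockouts, against 26.3 and 24.98 TPM in the controls (log2 fold change -1.18, SE 0.22, limma adjusted p = 0.0339). YARS2 (-0.47), IARS2 (-0.58) and NARS2 (-0.56), for tyrosine, isoleucine and asparagine, were among the others that fell, and WARS2 and IARS2 lie on chromosome 1. A list of 17 tested translation factors and related genes included LRPPRC, SLIRP, OXA1L, PDF and MTFMT. Of these 17, 16 were below 0, with a median of -0.24, and 1 fell. It was GUF1, a GTPase of elongation, with 25.7 and 23.2 TPM in the knockouts and 34.0 and 33.2 TPM in the controls (log2 fold change -0.44, adjusted p = 0.0422). TUFM, the elongation factor Tu of mitochondria, had 297 and 307 TPM in the knockouts and 333 and 328 TPM in the controls (adjusted p = 0.177).

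Assembly factors of the mitoribosome had a median of -0.21 over 24 tested genes. Of these 24, 1 fell and 1 rose (4.17% each), against 8.67% and 9.06% of all tested genes. MALSU1, a large-subunit assembly factor, fell to 17.0 and 15.7 TPM in the knockouts, against 26.5 and 23.9 TPM in the controls (log2 fold change -0.60, SE 0.11, limma adjusted p = 0.0317). NGRN, which binds the large ribosomal RNA, rose to 45.2 and 49.1 TPM in the knockouts, against 31.8 and 31.2 TPM in the controls (log2 fold change 0.56, SE 0.09, adjusted p = 0.0236). The 10 genes of mitochondrial transcription and replication had a median of -0.17 and 0 passed, with 3 at an unadjusted limma p under 0.05. Of all tested genes 17.7% passed, and 38.3% had an unadjusted limma p under 0.05. TFAM, which packages the mitochondrial genome and serves its transcription, had 14.3 and 10.5 TPM in the knockouts and 26.3 and 18.7 TPM in the controls (log2 fold change -0.81, adjusted p = 0.0677).

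Among 9 regulators of mitochondrial gene expression 1 fell (11.1%) and 0 rose, with 5 below 0 and 4 above. The member that fell was PPARGC1A, the coactivator PGC-1 alpha. It had 1.57 and 0.587 TPM in the knockouts, against 6.93 and 5.97 TPM in the controls, at a low level, and its log2 fold change was -1.88 (SE 0.28) with a limma adjusted p of 0.0229. YY1 had 33.1 and 31.8 TPM in the knockouts and 42.5 and 39.2 TPM in the controls (log2 fold change -0.32, adjusted p = 0.0659). GABPA, the DNA-binding ETS subunit of GABP, had 6.3 and 4.3 TPM in the knockouts and 10.98 and 8.65 TPM in the controls (log2 fold change -0.79, adjusted p = 0.0676). NRF1 had a log2 fold change of -0.22 (adjusted p = 0.203). PPARGC1B, the paralog of PPARGC1A, had 1.71 and 2.79 TPM in the knockouts and 1.11 and 1.13 TPM in the controls (log2 fold change 0.59, adjusted p = 0.139), and ESRRA, a nuclear receptor, was at 0.32 (adjusted p = 0.213).

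**Figure D5:**
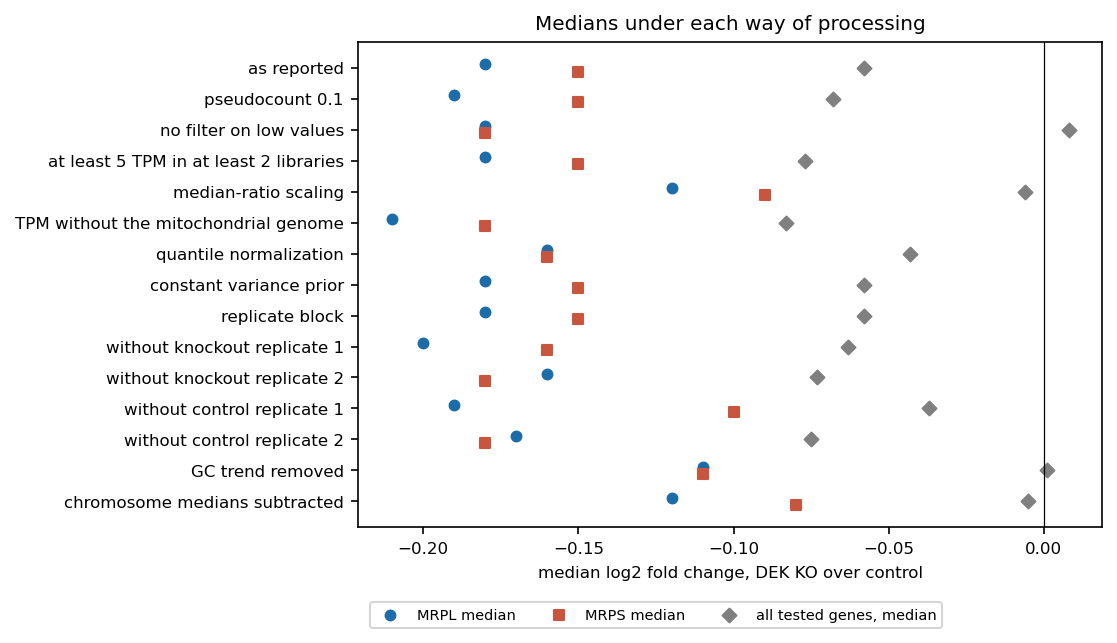
Median log2 fold change (knockout over control) of the MRPL genes, the MRPS genes and all tested genes, as reported and under each alternative. The members' medians lie below that of all genes in every line shown, from -0.21 to -0.11 for MRPL and from -0.18 to -0.08 for MRPS.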

How the data were processed

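The authors' deposited table gives TPM for 59409 gene symbols in 1 column per library, and each column sums to 1000000. For the authors' own processing, the submitters' processing notes list hg38, STAR 2.7.8a, cutadapt 1.18, DESeq2 1.36.0 and featureCounts 2.0.1, with no role for each. No source used here gives the gene annotation, gene lengths or use of strand, so overlapping genes cannot be separated. Symbols were matched to GENCODE 29 on GRCh38, 54390 by name and 2194 through current symbols. Coordinates count from 1. Depth is an estimate from the commonest step of TPM times exon length, and 54.6% to 56.4% of low values came out whole within 0.02.

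Genes were tested if 2 or more libraries had 1 TPM or more. The fit, of log2(TPM + 1), used limma 3.58.1 (R 4.3.3) with group as its only term, a variance prior that follows mean expression, and Benjamini-Hochberg adjustment over all 15815 genes. The log2 scale with a pseudocount of 1 understates the fold changes of low genes. The procedure was tested on simulated data. An exact permutation test of 2 against 2 libraries has a smallest p of 0.333 and was not used. Lists are described by counts and medians.

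Named members are those past the threshold, the 3 highest and 3 lowest log2 fold changes of each subunit, the 3 highest and 2 lowest levels, the MRPS18 genes and the stalk genes. For related lists they are up to 4 members past the threshold. A gene of these lists is not reported here. Other genes named were chosen after their values were seen, as were the motifs and start regions. Members and lists were chosen with earlier results of these data known. The libraries of each group correlated at r = 0.980 (knockouts) and 0.989 (controls) across tested genes.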

Additional observations from a re-analysis of the deposited data

How the results depend on the processing

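The MRPL and MRPS medians stayed below 0 under every alternative run. The number past the threshold, 4 MRPL and 5 MRPS genes and 2804 genes in all, did not hold. With no filter on low values limma called 0, 0 and 26 (MRPS median -0.18). At an unadjusted limma p under 0.05 it called 22 MRPL and 13 MRPS genes (44.9% of 78 members), against 22.9% of the 31270 genes then tested. Those 31270 genes include many near 0 TPM. In other settings the member share was above, close to or below that of all genes. It was 45.5% against 38.3% as reported, and 49.4% against 39.1% for TPM without the mitochondrial genome. The shares were 44.7% of members and 45.0% of all genes with a 5 TPM filter, and 37.7% and 38.0% after quantile normalization. They were 27.3% and 36.5% with a constant variance prior, and 41.6% and 36.2% with the GC trend removed. A constant variance prior gave 0, 1 and 1437, and an adjusted p of 0.01 gave 0, 0 and 90. A filter of 5 TPM gave 7 MRPL genes, and 13 of 76 members passed, beside 26.8% of all genes. Median-ratio scaling gave 2 MRPS genes (medians -0.12 for MRPL, -0.09 for MRPS and -0.006 for all genes). Under it 7 of 77 members passed, beside 16.1% of all genes. Quantile normalization gave 2 MRPS genes, and 5 of 77 members passed, beside 16.5%. TPM without the mitochondrial genome gave an MRPL median of -0.21 (all genes -0.083), and 12 of 77 members passed, beside 18.4%. With the GC trend removed 7 MRPL and 2 MRPS genes passed (medians -0.11 and -0.11, all genes 0.001), beside 16.5% of all genes. With chromosome medians subtracted 5 MRPL and 2 MRPS genes passed (medians -0.12 and -0.08, all genes -0.005), beside 18.4% of all genes. Placing genes by their position in the mitoribosome gave an MRPS median of -0.18. Leaving out members with over 10% of exon bases shared with another gene was an alternative added after seeing the data. It gave 1 of 34 MRPL genes, the rise of MRPL40, and 3 of 18 MRPS genes, all lower (MRPS median -0.08). This stands beside 17.7% of all tested genes. The cause was not tested. Leaving out 1 library at a time gave 0 to 28 MRPL genes, 0 to 13 MRPS genes and 47 to 5510 genes in all, with medians of -0.20 to -0.16 for MRPL and -0.18 to -0.10 for MRPS.

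Replicate numbers are shared by the groups, but same-numbered libraries deviated together only weakly (r = 0.0989 over genes) and no label pairs them. A replicate block gave 4 MRPL and 4 MRPS genes, 5 of the 9 called without it, and 2971 in all.

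Some named members that did not pass the test changed sign. MRPL33 was at 0.05 with the GC trend removed and 0.02 with chromosome medians subtracted. MRPS2 was at -0.11, MRPL10 at -0.01, MRPS18A at 0.00 and MRPS18C at 0.07 with the GC trend removed, and MRPS2 at -0.03 without the mitochondrial genome and -0.02 after quantile normalization. With single libraries left out MRPS2 reached -0.06 and -0.01, MRPL10 ranged from -0.03 to 0.11, MRPS34 from -0.19 to 0.02 and MRPL12 from -0.35 to 0.18.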

Other observations

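A list of genes of mitochondrial protein import, not limited to the import of ribosomal proteins, was also read. It had a median log2 fold change of -0.19 over 23 tested genes, against -0.06 over all tested genes. Of these 23, 2 fell (8.7%) and 0 rose, against 8.67% and 9.06% of all tested genes. TIMM13, a chaperone of the intermembrane space, had 88.1 and 102 TPM in the knockouts and 141 and 137 TPM in the controls (log2 fold change -0.54, limma adjusted p = 0.0291). TOMM70, a receptor of the outer membrane, had 42.3 and 38.8 TPM in the knockouts and 68.9 and 56.0 TPM in the controls (log2 fold change -0.61, adjusted p = 0.0403).

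Pseudogenes of the members, picked by symbol alone, had low levels. The table lists 79 symbols of MRPL and MRPS pseudogenes, of which 3 had a mean of at least 1 TPM. Their summed level was 12.3 and 13.1 TPM in the knockouts and 15.7 and 15.5 TPM in the controls, and MRPL45P2 was the highest, at a mean of 7.13 TPM.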
